A study of Mus musculus with 6 samples.

Results

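The 35 genes described here encode proteins that copy DNA in S phase: the MCM helicase and its loaders, GINS, the polymerases and primase, the sliding clamp and its loader, the enzymes of nucleotide supply, and the proteins that finish new strands and wrap them in chromatin. They were listed by gene symbol, with earlier results of these data known, and all 35 were found among the 24062 genes of the count table. All 35 also passed the filter on low counts, which left 14090 genes for testing. RNA was sequenced from C57BL/6 mouse embryonic fibroblasts, primary cells grown from embryos. In 3 libraries (p27 OE) the cells carried a lentivirus that overexpresses p27, and 3 other libraries are named EV control, an abbreviation that the labels do not spell out. All 6 libraries were from day 4, a time at which, per the labels, cells with extra p27 had not yet become senescent. The labels do not say whether libraries of 1 group came from separate cultures or embryos, nor which promoter drives p27. The p-values therefore measure the spread between these libraries, part of which may be technical.

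The protein p27, encoded by Cdkn1b, binds and inhibits cyclin-dependent kinases, above all Cdk2 with cyclin E or cyclin A, and so holds cells before S phase. In G1, the loaders Cdc6 and Cdt1 place the ring of Mcm2 to Mcm7 on replication origins. At the start of S phase, cyclin-dependent kinase and the kinase Cdc7 let Cdc45 and GINS join the ring and turn it into the active helicase. Many of these genes are known targets of E2F transcription factors, which the retinoblastoma protein represses until cyclin-dependent kinases phosphorylate it. Their mRNA levels commonly follow the share of cycling cells in a culture. In bulk RNA, fewer cells in S phase and less mRNA per cell cannot be told apart.

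Total counts ran from 38533998 to 44518389 in p27 OE and from 34920728 to 52098220 in EV control. Cdkn1b stood at 419, 978 and 460.0 CPM (TMM-scaled counts relative to the library total) in p27 OE 1, 2 and 3, against 52.2, 49.9 and 51.2 CPM in EV control 1, 2 and 3. The groups did not overlap for Cdkn1b. On the log2 scale edgeR put the difference at 3.60 ± 0.35 (SE, 3 libraries per group), with an adjusted p of 0.180, which was 0.00105 without p27 OE 2. With the library number as a block, edgeR gave 3.48 ± 0.42 and an adjusted p of 0.0873. Neither edgeR fit of all libraries thus called Cdkn1b, while DESeq2 without the block did (adjusted p 3.9e-27). Whether a Cdkn1b read came from the vector or the cell cannot be told apart. The libraries numbered 1 stood apart: the X-inactivation RNA Xist was at 477 CPM in p27 OE 1 and 317 CPM in EV control 1, and between 0.504 and 9.57 CPM in the other 4 libraries. The Y-linked gene Ddx3y was at 0.0220 CPM in p27 OE 1 and 0.0556 CPM in EV control 1, and between 54.3 and 65.5 CPM in the others. By these genes the cells of the libraries numbered 1 were female and those of the other 4 mostly male. Each group thus held cells of more than 1 embryo, and its spread is not only technical. The 8 fibroblast markers summed to between 58058 and 59937 CPM in p27 OE and between 54047 and 59107 CPM in EV control. Col1a1 alone was at 22733 to 26723 CPM, so these sums say little about markers at lower levels. Within each number Col1a1 and Thy1 were higher in p27 OE, Col3a1, Pdgfra and Vim were lower, and the others were mixed. Pdgfra was at 233, 106 and 84.9 CPM in p27 OE 1, 2 and 3, against 304, 144 and 132 CPM in EV control 1, 2 and 3. The 4 epithelial markers summed to between 9.39 and 9.65 CPM in p27 OE and between 10.6 and 11.99 CPM in EV control, without overlap. Of these, Krt18 was at 6.64 to 7.26 CPM in p27 OE and 8.08 to 9.15 CPM in EV control, while Epcam and Cdh1 were at or under 0.200 CPM in every library. The 4 endothelial markers summed to between 2.82 and 3.58 CPM in p27 OE and between 2.03 and 3.54 CPM in EV control, nearly all of it Kdr and Tek, with Pecam1 and Cdh5 at or under 0.157 CPM in every library. Of 6 macrophage markers 5 were in the table, and they summed to between 38.8 and 71.8 CPM in p27 OE, highest in p27 OE 2, and to between 42.6 and 53.8 CPM in EV control. The part of these cells in the results was not tested.

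No fall of the replication genes as a group was detected in p27 OE. Summed over the 35 genes, their level was 1230.0, 815 and 854 CPM in p27 OE 1, 2 and 3, against 1130.1, 878 and 830 CPM in EV control 1, 2 and 3. The sums of the groups overlapped, and in both groups the library numbered 1 was the highest. The log2 fold changes, p27 OE over EV control, ran from -0.20 for the loader gene Cdt1 to 0.32 for the thymidine kinase gene Tk1. Of these, 18 were above 0 and 17 below, with a median of 0.03, beside a median of -0.00 over all tested genes. Without p27 OE 1 the median of the 35 was -0.23, and without EV control 1 it was 0.20. Each of these fits has a library numbered 1 in the other group only. No member had its 3 p27 OE libraries all above or all below the 3 EV control libraries, where 6.61% of all tested genes lay wholly above and 8.28% wholly below.

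In edgeR's quasi-likelihood test without pairing, 0 members were called higher and 0 lower at an adjusted p of 0.05, and 0 had an unadjusted p under 0.05, beside 7.22% of all tested genes. That fit called 0% of all genes. Without pairing, limma-voom also called 0 members and 0% of all genes, and DESeq2 called 0 members, beside 0.376% of all genes higher and 0.256% lower. With the shared library number as a block (the paired fit), edgeR called 1 member, Tk1, higher and 0 lower. The share called higher was 2.86% of members, beside 3.8% of all tested genes called higher and 3.63% called lower in the same fit. Without the libraries numbered 1, the paired fit called Tk1 higher and Cdt1 and the polymerase delta gene Pold1 lower, beside 6.36% of all genes called higher and 6.04% lower. Without those numbered 2 it called Tk1 and the polymerase epsilon gene Pole higher, beside 3.51% of all genes higher and 2.97% lower. Without those numbered 3 it called 0 members, beside 1.58% of all genes higher and 0.746% lower, and 2 members had an unadjusted p under 0.05, beside 14.4% of all genes. Each of these fits rests on 2 pairs.

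How large a change these data leave room for differed between the fits. Without pairing, the 95% interval of the fold change lay above a 2-fold decrease for 34 of the 35 genes, the exception being the loader gene Cdc6, whose lower bound was -1.12 on the log2 scale. It lay above a 1.5-fold decrease for 19. In the paired fit, the intervals of all 35 lay within a 1.5-fold change in either direction, with bounds from -0.46 to 0.57 on the log2 scale. The median SE of the 35 log2 fold changes was 0.23 without pairing and 0.09 with it.

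**Figure D1:**
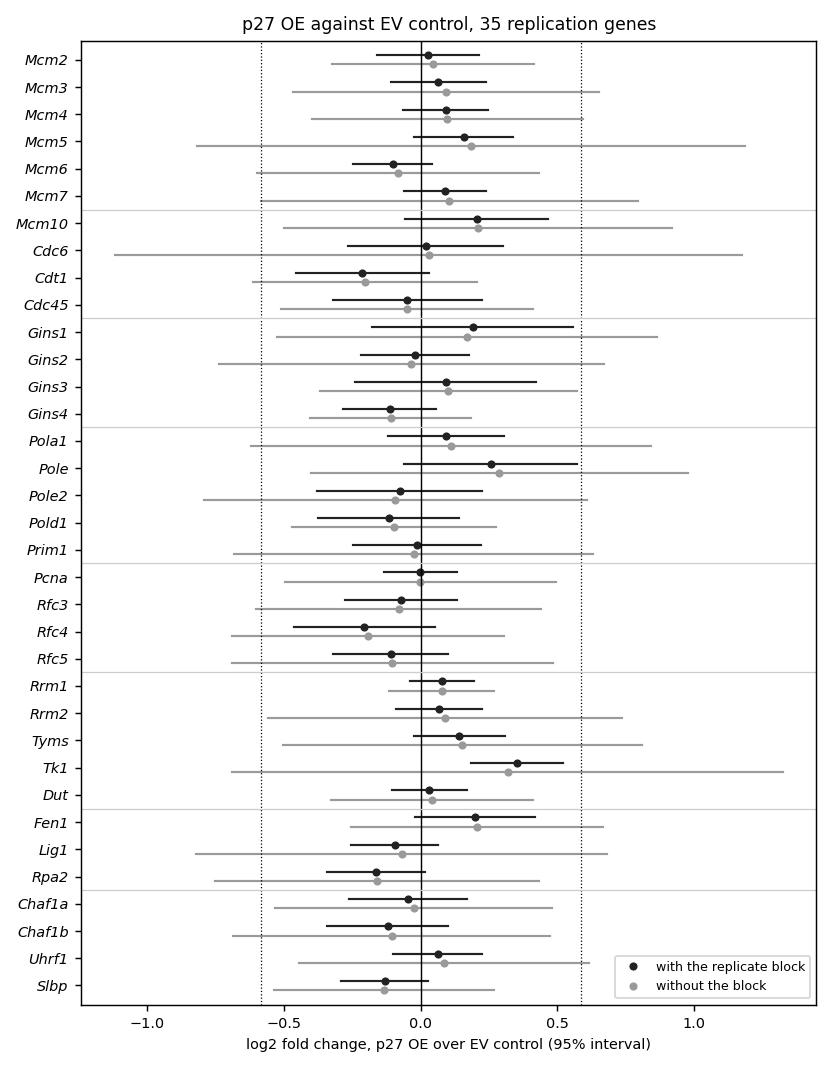
Log2 fold change, p27 OE over EV control, with its 95% interval for the 35 replication genes, from edgeR with the library number as a block (black) and without it (grey). Dotted lines mark a 1.5-fold change. The black intervals all lie within those lines, and among them only that of Tk1 lies wholly to one side of 0.

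The gap between library numbers was larger than the difference between groups. In 32 of the 35 genes (91.4%) the library numbered 1 was above those numbered 2 and 3 in both groups, as it was for 31.1% of all tested genes. The exceptions were Cdt1 and Pold1, in which this held in p27 OE but not in EV control, and Dut, in which the libraries numbered 1 were the lowest in both groups. The libraries numbered 1 were above the mean of the other libraries of their group by a median log2 difference of 0.66 in p27 OE and 0.49 in EV control, beside 0.00 in p27 OE and -0.00 in EV control over all tested genes. The proliferation marker Mki67 was at 119, 63.3 and 69.7 CPM in p27 OE 1, 2 and 3, against 73.5, 61.9 and 62.8 CPM in EV control 1, 2 and 3, so it was also highest in the libraries numbered 1. Together the 4 proliferation markers (Mki67, Top2a, Ccnb1 and Cdk1) summed to 398, 252 and 278 CPM in p27 OE 1, 2 and 3. In EV control 1, 2 and 3 the sums were 322, 268 and 273 CPM, so p27 OE was higher within numbers 1 and 3 and lower within number 2. The replicate spread of the 35 genes was accordingly wide: the median SD of log2 CPM was 0.38 in p27 OE and 0.30 in EV control, beside 0.18 and 0.16 over all tested genes in the same groups. What sets the libraries numbered 1 apart in these genes was not tested.

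**Figure D2:**
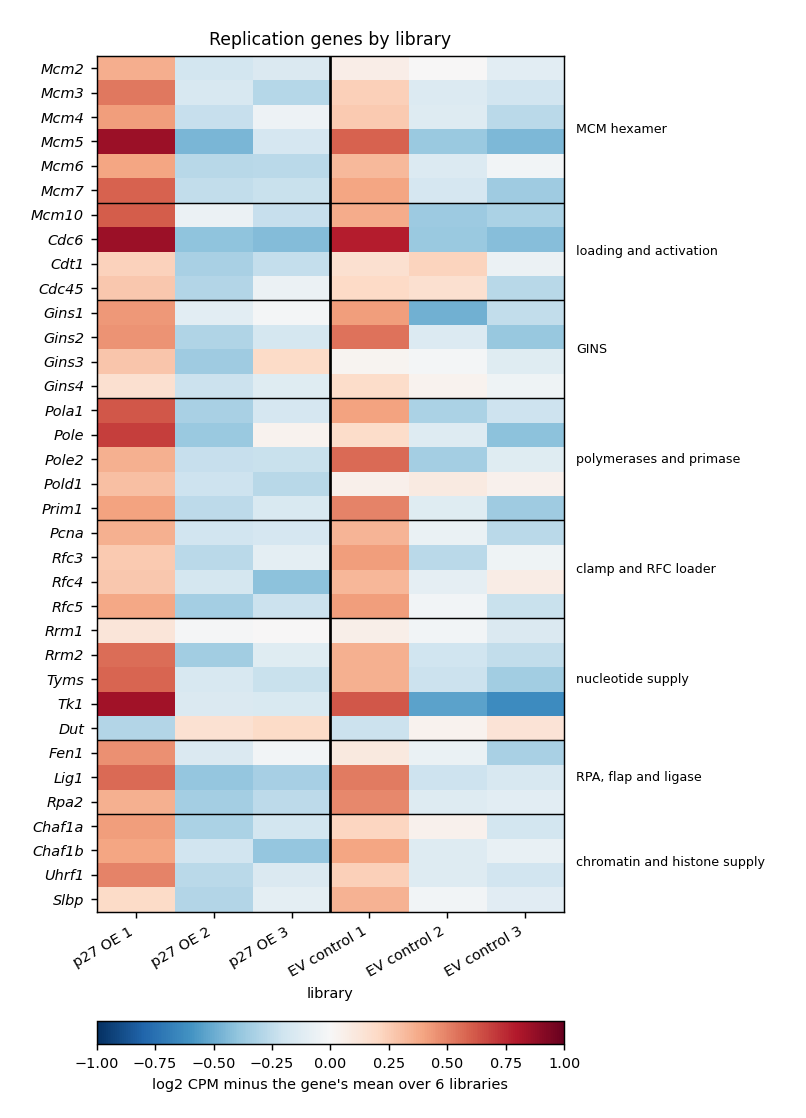
Log2 CPM of each replication gene in each library, minus the mean of that gene over the 6 libraries, with genes grouped by complex, p27 OE on the left and EV control on the right. The columns of p27 OE 1 and EV control 1 are red for nearly every gene, while Dut shows the opposite order.

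The 6 subunits of the MCM ring, the helicase that unwinds DNA ahead of the fork, were all highest in the libraries numbered 1 of both groups, by log2 differences of 0.112 (Mcm2) to 0.998 (Mcm5) in EV control. Averaged over the 6 genes as log2 CPM minus the mean of each gene, the ring stood at 0.52, -0.26 and -0.19 in p27 OE 1, 2 and 3, against 0.31, -0.15 and -0.23 in EV control 1, 2 and 3. This mean was above that of EV control within numbers 1 and 3 and below it within number 2, but within number 3 Mcm2, Mcm3 and Mcm6 were lower in p27 OE and Mcm4, Mcm5 and Mcm7 higher. Mcm5 had the largest change of the ring, with 45.1, 18.2 and 22.2 CPM in p27 OE 1, 2 and 3, against 37.6, 19.4 and 18.3 CPM in EV control 1, 2 and 3. The ranges overlapped, and its log2 fold change of 0.18 ± 0.42 (SE here and below, with 3 libraries per group) was not called (edgeR adjusted p 0.972). Mcm4 had the smallest p of the ring and was at 55.8, 35.5 and 40.2 CPM in the p27 OE libraries, against 50.1, 38.2 and 34.6 CPM in EV control, in the same order of libraries. Its log2 fold change was 0.10 ± 0.21 (edgeR adjusted p 0.969). Mcm2, Mcm3 and Mcm7 had log2 fold changes between 0.04 and 0.10, and Mcm6 one of -0.08.

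Per length, which allows genes to be compared, the ring subunits other than Mcm5 were at similar levels. In CPM per kb of exon, Mcm2, Mcm6 and Mcm7 averaged 14.7, 13.9 and 15.3 in p27 OE and 14.3, 14.7 and 14.2 in EV control. Mcm4 and Mcm3 were somewhat lower, at 12.2 and 11.7 in p27 OE and 11.4 and 10.9 in EV control, and Mcm5 was the lowest, at 8.24 in p27 OE and 7.26 in EV control. The loader gene Cdc6 was at 1.17 in p27 OE and 1.15 in EV control, the lowest mean of the 35 genes but within its spread of Mcm10, at 1.4998 in p27 OE and 1.2966 in EV control. The clamp gene Pcna was the highest, at 40.8 in p27 OE and 40.9 in EV control, followed in EV control by Rrm1 at 27.96 ± 1.95, Dut at 21.6 ± 2.65 and Rrm2 at 20.5 ± 5.03 CPM per kb (mean ± SD, n = 3). Dut and Rrm2 lie within their spread of each other. The lengths are those of all annotated exons, so a gene whose cells use a shorter transcript is placed too low.

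**Figure D3:**
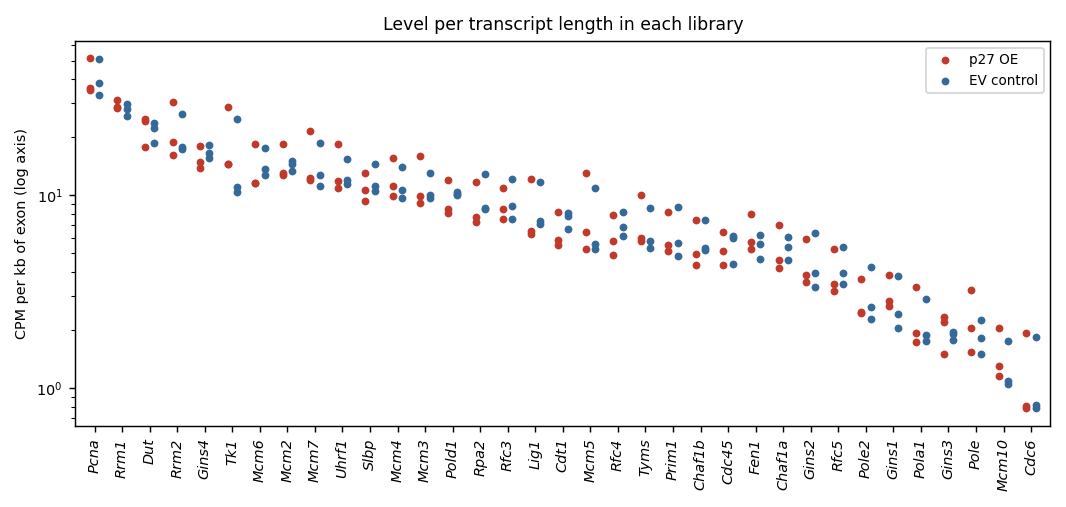
Level of each replication gene in CPM per kb of annotated exon, on a log axis, with 1 point per library, p27 OE left (red) and EV control right (blue) within each gene, ordered by the EV control mean. The points of the groups overlap in every gene, with Pcna at the high end and Cdc6 and Mcm10 at the low end.

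The promoters of these genes were searched for E2F sites, since E2F factors link cyclin-dependent kinases to this gene set. RefSeq promoter windows of 300 bases (250 before and 50 after the start site, GRCm38.p6) were found for 30 of the 35 genes, in 35 windows. The exact 8-letter motifs TTTGGCGC or TTTCCCGC, on either strand, were in 11 of the 35 windows (31.4%), each of a different gene, and in 1.56% of all 32851 windows or 2.73% of the windows of tested genes. Matches of the first motif on the 2 strands can share the letters GCGC. The 11 genes were Cdc6, Cdt1, Gins3, Mcm3, Mcm5, Mcm6, Mcm7, Pola1, Pold1, Pole2 and Rfc3. A match describes letters and is not a measured binding site, and the absence of one says only that these letters are not in the window. Shown are Mcm6, with a pair of matches, Mcm5, with the largest change in the ring, and Tk1, the only member called, with matches in capitals. The bases lie before the start sites of both RefSeq and GENCODE, 5′ to 3′ on the strand of the gene, at chr1:128359706-128359955 (minus strand) for Mcm6, chr8:75109259-75109508 (plus strand) for Mcm5 and chr11:117826093-117826264 (minus strand) for Tk1.
Mcm6: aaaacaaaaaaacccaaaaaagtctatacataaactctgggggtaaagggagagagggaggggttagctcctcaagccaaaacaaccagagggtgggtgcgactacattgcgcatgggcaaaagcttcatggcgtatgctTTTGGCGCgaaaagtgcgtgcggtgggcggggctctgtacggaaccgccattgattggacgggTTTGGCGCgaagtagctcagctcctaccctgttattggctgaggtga
Mcm5: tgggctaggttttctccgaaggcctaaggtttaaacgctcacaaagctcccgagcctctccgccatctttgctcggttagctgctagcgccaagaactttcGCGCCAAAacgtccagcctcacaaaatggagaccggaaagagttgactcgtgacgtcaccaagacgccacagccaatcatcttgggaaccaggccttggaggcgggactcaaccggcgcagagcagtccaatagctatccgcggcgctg
Tk1: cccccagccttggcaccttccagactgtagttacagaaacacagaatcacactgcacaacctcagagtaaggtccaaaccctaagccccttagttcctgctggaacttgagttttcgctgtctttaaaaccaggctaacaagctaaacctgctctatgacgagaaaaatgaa

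The Mcm6 matches start 110 and 47 bases before the RefSeq start site, and the Mcm5 match, read on the opposite strand, starts 149 bases before it. The log2 fold changes of Mcm6 and Mcm5 were -0.08 and 0.18, both within 1 SE of 0. Tk1, the member that was called in the paired fit, has no match to either motif in its 300-base window.

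Among the genes that load and activate the helicase, the log2 fold changes lay between -0.20 and 0.21. Cdt1, which brings the MCM ring to origins, was at 17.9, 12.2 and 12.9 CPM in p27 OE 1, 2 and 3, against 17.1, 17.8 and 14.7 CPM in EV control 1, 2 and 3. The libraries p27 OE 2 and 3 were below every EV control library, but p27 OE 1 was above all 3. Its log2 fold change was -0.20 ± 0.17 (edgeR adjusted p 0.860), and in the paired fit without the libraries numbered 1 it was -0.37 ± 0.11 (adjusted p 0.0385). Mcm10, which helps to fire the assembled helicase, was at 10.2, 6.42 and 5.70 CPM in the p27 OE libraries, against 8.69, 5.199 and 5.38 CPM in EV control. It was higher within each of the 3 numbers, with a log2 fold change of 0.21 ± 0.30 (edgeR adjusted p 0.941). Cdc6, given here for its wide spread and chosen after its values were seen, was at 9.21, 3.86 and 3.76 CPM in the p27 OE libraries, against 8.78, 3.93 and 3.78 CPM in EV control. The number of the library, not the group, orders these 6 values, and the log2 fold change was 0.03 ± 0.48. The helicase cofactor gene Cdc45 had a log2 fold change of -0.05.

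The 4 GINS subunits, which bind Cdc45 and the ring, did not share a direction. Gins4 had the smallest p, with 24.3, 18.8 and 20.1 CPM in p27 OE 1, 2 and 3, against 24.7, 22.3 and 21.2 CPM in EV control 1, 2 and 3. It was lower within each number, but the ranges overlapped, with a log2 fold change of -0.11 ± 0.12 (edgeR adjusted p 0.908). Gins1 had the largest change, with 4.20, 2.90 and 3.08 CPM in the p27 OE libraries, against 4.17, 2.23 and 2.62 CPM in EV control. It was higher within each number, and its log2 fold change was 0.17 ± 0.29 (edgeR adjusted p 0.960). Gins1 rests on 79 to 225 counts per library, the fewest of the 4. Gins2 and Gins3 had log2 fold changes of -0.03 and 0.10. Exons of Gse1 on the opposite strand cover 70.7% of the annotated exon length of Gins2, and without strand in the libraries reads of these 2 genes cannot be told apart there.

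Of the polymerase and primase genes, Pole, the catalytic subunit of the leading-strand polymerase epsilon, had both the largest change and the smallest p. It was at 23.9, 11.4 and 15.2 CPM in p27 OE 1, 2 and 3, against 16.8, 13.5 and 11.1 CPM in EV control 1, 2 and 3. It was higher in p27 OE within numbers 1 and 3 and lower within number 2, with a log2 fold change of 0.29 ± 0.29 (edgeR adjusted p 0.885). In the paired fit without the libraries numbered 2 it was 0.48 ± 0.11 (adjusted p 0.00205). Pold1, the catalytic subunit of the lagging-strand polymerase delta, was chosen after its values were seen, and was at 41.7, 29.3 and 28.02 CPM in the p27 OE libraries, against 35.1, 36.1 and 34.9 CPM in EV control. The EV control libraries were close together, while p27 OE 1 lay above them and p27 OE 2 and 3 below, for a log2 fold change of -0.10 ± 0.16 (edgeR adjusted p 0.953). In the paired fit without the libraries numbered 1 it was -0.31 ± 0.08 (adjusted p 0.0125). Pola1, which starts new strands with the primase, and the primase gene Prim1 had log2 fold changes of 0.11 and -0.03, and Pole2 one of -0.09.

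The clamp and its loader were the complex with log2 fold changes below 0 in all 4 members, between -0.19 and -0.00, none of them called. Averaged over Pcna, Rfc3, Rfc4 and Rfc5, p27 OE minus EV control was -0.06, -0.13 and -0.11 within numbers 1, 2 and 3 on the log2 scale. Without pairing, the median log2 fold change of the 4 genes was -0.09, and 0.03 without p27 OE 2 and 0.12 without EV control 1. The fit without EV control 1 has a library numbered 1 in p27 OE only. In the paired fits without both libraries numbered 1, 2 or 3, the median was -0.09, -0.06 and -0.08. The group differences of the 4 genes are small beside the gap between numbers, since their averaged centred log2 CPM ran from -0.24 to 0.32 among the p27 OE libraries. Rfc4, a subunit of the loader that opens the clamp, was at 10.3, 7.54 and 6.42 CPM in p27 OE 1, 2 and 3, against 10.7, 7.997 and 8.99 CPM in EV control 1, 2 and 3. It was lower within each number, by most within number 3, with a log2 fold change of -0.19 ± 0.21 (edgeR adjusted p 0.902). Pcna itself, the ring that holds polymerases on DNA, was chosen after its values were seen, and was at 78.1, 53.3 and 54.4 CPM in the p27 OE libraries, against 77.3, 58.2 and 50.5 CPM in EV control, a log2 fold change of -0.00 ± 0.21. Rfc3 and Rfc5 had log2 fold changes of -0.08 and -0.10. Rfc4 and Rfc5 share 13.4% and 15.4% of their exon length with genes on the opposite strand, Eif4a2 and Wsb2, which had more counts than they did. Pcna has 2 annotated pseudogenes and Tyms has 1, and the handling of reads with several matches is not stated.

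The 5 genes of nucleotide supply were the set with log2 fold changes above 0 in all 5 members, between 0.04 and 0.32 without pairing. Of these, Tk1 was called, in the paired fit only. Averaged over the 5, p27 OE minus EV control was 0.13, 0.09 and 0.19 within numbers 1, 2 and 3 on the log2 scale. Without pairing, the median log2 fold change of the 5 genes was 0.09, and -0.09 without p27 OE 1, a fit with a library numbered 1 in EV control only. In the paired fits without both libraries numbered 1, 2 or 3, the median was 0.09, 0.17 and 0.04. Tk1, the thymidine kinase of the salvage pathway (chr11:117815526-117826092, minus strand, GRCm38), was at 41.4, 20.9 and 20.9 CPM in p27 OE 1, 2 and 3, against 35.7, 15.99 and 15.03 CPM in EV control 1, 2 and 3. It was higher in p27 OE within each number, although EV control 1 lay above p27 OE 2 and 3. Without pairing its log2 fold change was 0.32 ± 0.42 (edgeR adjusted p 0.934). Leaving out 1 library in that fit gave values from -0.09 (without p27 OE 1) to 0.84 (without EV control 1), with 0.10 without EV control 3 and 0.13 without EV control 2. The fits at both ends of that range have a library numbered 1 in the other group only. In the paired edgeR fit, Tk1 rose by 0.35 ± 0.08 on the log2 scale (n = 3 pairs, adjusted p 0.0170). Without the libraries numbered 1 it rose by 0.43 ± 0.10 (adjusted p 0.00568), and without those numbered 2 by 0.34 ± 0.10 (adjusted p 0.0164). Without the libraries numbered 3 it rose by 0.30 ± 0.10 with an adjusted p of 0.159, short of the threshold. Afmid, a gene on the opposite strand, shares 5.76% of the exon length of Tk1.

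Rrm1, the large subunit of ribonucleotide reductase, which makes deoxynucleotides, had the smallest SE of the 35 log2 fold changes. It was at 125, 114 and 115 CPM in p27 OE 1, 2 and 3, against 119, 113 and 104 CPM in EV control 1, 2 and 3, a log2 fold change of 0.08 ± 0.08 (edgeR adjusted p 0.896). Rrm2, its small subunit and the one known to be made mainly in S phase, was at 66.6, 35.4 and 41.5 CPM in the p27 OE libraries, against 57.7, 39.2 and 38.1 CPM in EV control. The library numbered 1 was thus 1.73-fold above the mean of the others for Rrm2 in p27 OE and 1.49-fold in EV control, against 1.09-fold and 1.10-fold for Rrm1. Tyms, thymidylate synthase, had a log2 fold change of 0.15 and was higher within each number. Dut, which removes dUTP, ran the other way between numbers, with 38.3, 52.4 and 53.6 CPM in the p27 OE libraries, against 40.5, 48.3 and 51.6 CPM in EV control, and its log2 fold change was 0.04 ± 0.15. Rrm2 and Dut were given in every library after their values were seen.

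**Figure D4:**
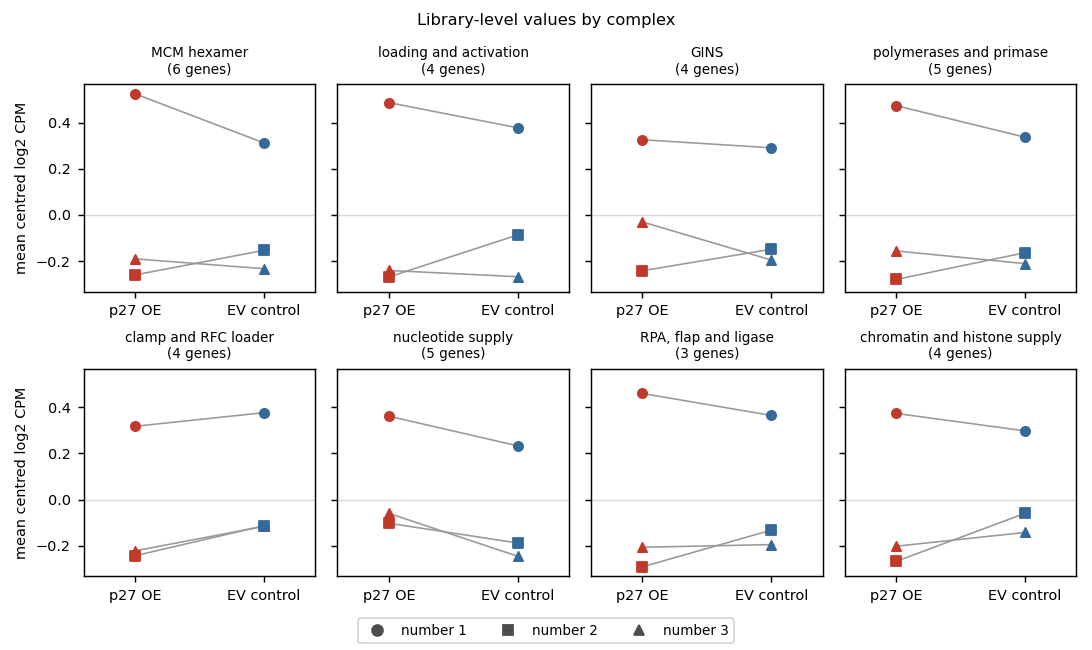
Mean log2 CPM of each complex in each library, after subtracting the mean of each gene over the 6 libraries, with p27 OE on the left and EV control on the right and a line between libraries of the same number. The circles of number 1 lie above the other points in every panel. The 3 lines slope the same way only for the clamp and its loader (lower in p27 OE) and for nucleotide supply (higher in p27 OE).

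The genes that protect, trim and join new strands gave no common direction either. Fen1, the nuclease that removes flaps between Okazaki fragments, was at 19.4, 12.7 and 13.8 CPM in p27 OE 1, 2 and 3, against 15.1, 13.5 and 11.3 CPM in EV control 1, 2 and 3. The groups overlapped, and its log2 fold change was 0.21 ± 0.19 (edgeR adjusted p 0.878). An annotated antisense RNA, Gm10143, covers 78.8% of the exon length of Fen1, and its reads cannot be told apart from those of Fen1. Lig1, the ligase that seals the fragments, and Rpa2, a subunit of the protein that coats single-stranded DNA, had log2 fold changes of -0.07 and -0.16, and Rpa2 was lower within each number. Of the chromatin genes, Slbp, whose protein binds the stem-loop of replication-dependent histone mRNAs, was at 34.4, 24.7 and 28.2 CPM in the p27 OE libraries, against 38.3, 29.6 and 27.8 CPM in EV control. It overlapped between groups, with a log2 fold change of -0.13 ± 0.17 (edgeR adjusted p 0.930). Chaf1a and Chaf1b, which place histones on new DNA, and Uhrf1, which helps to copy DNA methylation, had log2 fold changes of -0.03, -0.11 and 0.09. Exons of Ubxn6 on the opposite strand cover 33.6% of the exon length of Chaf1a.

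Within library numbers the replication genes did not move one way. Within number 1, 24 of the 35 genes (68.6%) were higher in p27 OE, as were 48.6% of all tested genes, with a median ratio of 1.05. Within number 2 only 8 (22.9%) were higher, beside 49.2% of all tested genes, with a median ratio of 0.916, and within number 3 it was 21 (60.0%), beside 49.7%, with a median ratio of 1.04. The ratio of Cdkn1b, p27 OE over EV control, was 8.02, 19.6 and 8.99 within numbers 1, 2 and 3, so the number with the most p27 mRNA was also the one in which most replication genes were lower. These are 3 pairs by number, and how numbers 2 and 3 pair could not be decided. Summed over the 35 genes, p27 OE 2 and 3 were at 815 and 854 CPM, and EV control 2 and 3 at 878 and 830 CPM. Matched across these numbers instead, p27 OE would have the lower sum for both p27 OE 2 and p27 OE 3. The relation to Cdkn1b was not tested.

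Of the 35 genes, 5 were higher in p27 OE within all 3 numbers (14.3%, beside 21.8% of all tested genes): Mcm10, Gins1, Rrm1, Tyms and Tk1. Another 4 were lower within all 3 (11.4%, beside 23.7%): Gins4, Rfc4, Chaf1b and Rpa2. A further 11 were higher within numbers 1 and 3 and lower within number 2 (31.4%, beside 8.77% of all tested genes), among them Mcm4, Mcm5, Mcm7, Cdc45, Pcna, Rrm2 and Pole. The share of members with the same direction in all 3 numbers was thus not above that of all tested genes. The pattern of the 11 genes is that of the medians within the 3 numbers and was not set in advance. All of these counts take libraries of the same number as pairs, and how numbers 2 and 3 pair could not be decided.

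**Figure D5:**
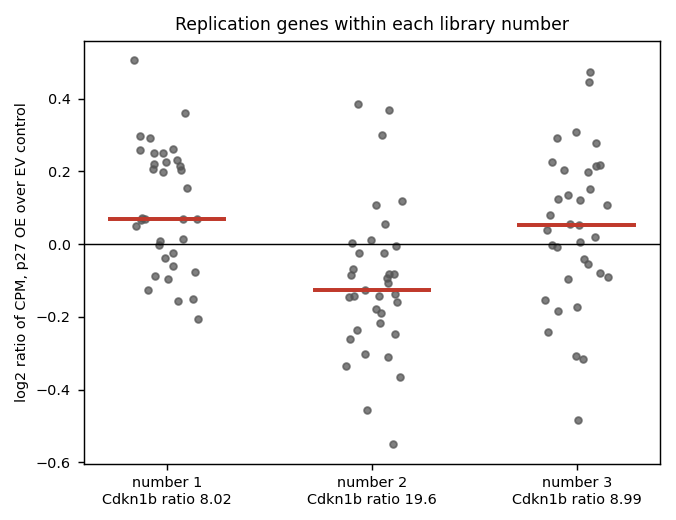
Log2 ratio of CPM, p27 OE over EV control, for each of the 35 replication genes (points) within each library number, with the median as a red line and the ratio of Cdkn1b under each number. The median lies below 0 within number 2 and slightly above 0 within numbers 1 and 3. How numbers 2 and 3 pair could not be decided.

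Of 48 listed origin, polymerase, checkpoint and cyclin genes outside the 35, all were tested, and their median log2 fold change was 0.03. Without pairing edgeR called 0 of them, with 2 at an unadjusted p under 0.05 (4.17%, beside 7.22% of all tested genes). The paired edgeR fit called 2 higher (4.17%, beside 3.8% of all tested genes) and 1 lower (2.08%, beside 3.63%), shares near those of all genes. Ccne2, an E-type cyclin and partner of Cdk2, was at 5.89, 3.37 and 2.65 CPM in p27 OE 1, 2 and 3, against 3.78, 1.72 and 1.44 CPM in EV control 1, 2 and 3, and rose in the paired fit by 0.81 ± 0.18 on the log2 scale (adjusted p 0.0152). Ccne1, the other E-type cyclin, was at 44.6, 40.7 and 46.3 CPM in the p27 OE libraries, against 38.8, 35.2 and 37.6 CPM in EV control, and rose by 0.24 ± 0.06 (adjusted p 0.0390). For Ccne1 the groups did not overlap. Pold2, the second subunit of polymerase delta, was at 28.2, 24.0 and 22.5 CPM in the p27 OE libraries, against 31.0, 29.5 and 30.2 CPM in EV control, also without overlap, and fell by 0.28 ± 0.08 (adjusted p 0.0403). Without the libraries numbered 3, the paired adjusted p was 0.0722 for Ccne2, 0.304 for Ccne1 and 0.345 for Pold2, and without those numbered 2 it was 0.0584 for Ccne1 and 0.0685 for Pold2. With the block, DESeq2 gave 0.0686 for Ccne1 and 0.0844 for Pold2, and edgeR with upper-quartile scaling gave 0.0521 for Ccne1.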

How the data were processed

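Per the labels' protocols, total RNA was purified on columns, and the TruSeq RNA kit (version 2), which keeps no strand, gave the libraries. The authors deposited raw counts per gene, 1 column per library, whole numbers with no normalization. The submitters' processing notes name TopHat2 2.0.14, Bowtie2 2.2.6, featureCounts 1.4.6, Subread and the mm10 build, with no gene annotation or strand setting stated. Replicates differed by more than sampling noise (mean chi-square per gene at least 9.67).

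Genes were kept with filterByExpr (minimum count 10, minimum total 15), scaled by TMM and tested with edgeR 4.0.16 in R 4.3.3 (quasi-likelihood F test, robust, two-sided, Benjamini-Hochberg over all tested genes, threshold 0.05). The SE is the log2 fold change over the root of F. Log2 CPM used a prior count of 2. A second fit had the library number as a block. The labels give the numbers, and the numbers were taken to pair the libraries. Deviations from the group means correlated at 0.77, 0.42 and 0.54 between libraries numbered 1, 2 and 3. However, p27 OE 2 and EV control 3 also correlated at 0.41, and p27 OE 3 and EV control 2 at 0.39. With number 1 apart in both groups, this check cannot decide how numbers 2 and 3 pair. DESeq2 1.42.0 and limma-voom (limma 3.58.1) were alternatives. All 35 members are named. Values in every library are given for members called in either fit, for the member with the smallest p and the member with the largest change in each complex, and for any whose groups do not overlap, besides 5 members that the text names as chosen after their values were seen. Of the other replication genes, those called in either fit are named. The members and lists were chosen with earlier results of these data known. Coordinates and exon lengths are from GENCODE vM21 (GRCm38, the assembly that mm10 names) and promoters from RefSeq. Simulated counts were used to test the fits. No exact permutation test was used, since 3 libraries against 3 cannot give a p under 0.1.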

Additional observations from a re-analysis of the deposited data

How the results depend on the processing

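Without the block, the count of called members was 0 higher and 0 lower with DESeq2, limma-voom, RLE or upper-quartile factors, without a filter, with 1 CPM required in 3 libraries, without Cdkn1b and without each single library. With the replicate block it was 1 higher (Tk1) and 0 lower under each of these settings that keeps all libraries, and the pairing changed no other call among the members. Leaving out libraries (each alone without the block, both of a number with it) gave 0 to 2 members higher and 0 to 2 lower. Their median log2 fold change ran from -0.23 without p27 OE 1 to 0.20 without EV control 1, with 33 and 5 of the 35 below 0, and each of these fits has a library numbered 1 in the other group only. It was -0.11 without EV control 3 and -0.00 with upper-quartile scaling and the block. Without p27 OE 1, the log2 fold change of Fen1 was -0.0012, against 0.21 with all libraries and at most 0.33 when libraries were left out.

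Over all genes, edgeR without the block called 0 higher and 0 lower (1017 at an unadjusted p under 0.05), 1 higher with no filter, and DESeq2 53 and 36. With the replicate block the numbers higher and lower were 535 and 512, with RLE scaling 567 and 475, upper-quartile scaling 483 and 736, no filter 689 and 727, the CPM filter 543 and 474, DESeq2 479 and 351, limma-voom 536 and 506, and without Cdkn1b 541 and 516. Leaving out libraries gave 0 to 893 higher and 0 to 848 lower. Motifs shortened by their first base, with TTGGCGG also counted, were in 62.9% of the member windows and 9.07% of all windows. Depth limits Gins1, with as few as 79 counts in a library. The cause of these differences was not tested.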
